A study of Mus musculus with 4 samples.

Results

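Cytotoxic lymphocytes kill by releasing granules whose proteins enter the target cell, and CD4 T cells can take on part of this programme. The genes described here are 10 of the 24369 genes listed in an RNA-seq experiment on mouse CD4 T cells, taken by symbol. They are the granzymes *Gzma*, *Gzmb*, *Gzmc* and *Gzmk*, the granule genes *Prf1*, *Nkg7* and *Ctsw*, the granzyme B inhibitor *Serpinb9*, and the NK receptor genes *Klrd1* and *Klrk1*. The experiment held 4 libraries. In 2 of them the cells carried an empty retrovirus (EV RV, MSCV-IRES-eGFP), and in the other 2 a retrovirus that expresses *Tox*, an HMG-box transcription factor (Tox RV, MSCV-Tox-IRES-eGFP). All cells were naïve CD4 T cells from spleens of WT C57BL/6 mice, with 2 mice behind each group. They were activated with plate-bound anti-CD3 and soluble anti-CD28 under unpolarized conditions, which the methods give as recombinant human IL-2 with no polarizing cytokine (the labels write recombinant human anti-CD28 at this place). They were transduced on day 2, restimulated on day 5 of culture through CD3 (the design text adds anti-CD28), and sorted for GFP. The sort keeps transduced cells in both groups, and the added *Tox* is driven from the vector and not by its own promoter.

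Granzymes are serine proteases stored in granules. Perforin, the product of *Prf1*, forms the pores through which they reach the cytosol of the target, and NKG7 is a granule membrane protein that takes part in degranulation. Cathepsin W (*Ctsw*) is a cysteine protease found in cytotoxic lymphocytes, and Serpinb9 protects the cell that makes granzyme B from its own protease. CD94 (*Klrd1*) pairs with NKG2 chains such as NKG2A (*Klrc1*) to bind a nonclassical MHC molecule, while NKG2D (*Klrk1*) is an activating receptor for stress-induced ligands. T-box and RUNX factors are known regulators of these genes in killer lymphocytes.

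The start-site regions of *Gzma*, *Gzmb*, *Gzmc*, *Nkg7* and *Klrk1* are shown because these genes carry the patterns described further on. They run from 250 bases before to 50 bases after the RefSeq start site (GRCm38.p6), 5′ to 3′ on the strand of the gene. RefSeq promoters were matched for 8 of the 10 genes, the exceptions being *Klrd1* and *Ctsw*. Capitals mark letters of 3 motifs, searched on both strands: TGANTCA (AP-1), TGTGGT (RUNX) and GTGTGA (T-box).
Gzma (chr13:113100932-113101231, minus strand): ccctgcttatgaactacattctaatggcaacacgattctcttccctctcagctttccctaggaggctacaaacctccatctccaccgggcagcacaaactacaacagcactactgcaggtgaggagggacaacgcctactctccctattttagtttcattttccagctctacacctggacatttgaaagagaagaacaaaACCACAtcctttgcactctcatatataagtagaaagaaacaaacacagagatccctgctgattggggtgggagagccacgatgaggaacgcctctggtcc
Gzmb (chr14:56262285-56262584, minus strand): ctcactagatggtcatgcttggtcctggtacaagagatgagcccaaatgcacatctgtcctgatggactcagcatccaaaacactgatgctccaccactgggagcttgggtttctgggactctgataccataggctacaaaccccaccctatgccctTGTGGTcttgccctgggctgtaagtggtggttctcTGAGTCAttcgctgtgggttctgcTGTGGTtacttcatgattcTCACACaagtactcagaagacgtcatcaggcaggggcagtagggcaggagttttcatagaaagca
Gzmc (chr14:56234608-56234907, minus strand): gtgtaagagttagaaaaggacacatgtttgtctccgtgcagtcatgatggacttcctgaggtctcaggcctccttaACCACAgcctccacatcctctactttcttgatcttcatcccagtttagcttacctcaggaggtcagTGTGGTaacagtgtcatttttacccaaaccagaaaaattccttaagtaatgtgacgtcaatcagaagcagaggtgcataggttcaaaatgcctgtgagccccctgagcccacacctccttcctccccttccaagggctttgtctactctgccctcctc
Nkg7 (chr7:43436888-43437187, plus strand): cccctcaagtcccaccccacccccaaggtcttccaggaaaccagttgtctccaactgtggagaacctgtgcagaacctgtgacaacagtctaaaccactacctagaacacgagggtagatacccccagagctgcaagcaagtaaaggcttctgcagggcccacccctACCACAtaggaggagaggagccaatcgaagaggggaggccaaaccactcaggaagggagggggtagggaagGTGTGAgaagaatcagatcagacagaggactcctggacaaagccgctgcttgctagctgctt
Klrk1 (chr6:129623815-129624114, minus strand): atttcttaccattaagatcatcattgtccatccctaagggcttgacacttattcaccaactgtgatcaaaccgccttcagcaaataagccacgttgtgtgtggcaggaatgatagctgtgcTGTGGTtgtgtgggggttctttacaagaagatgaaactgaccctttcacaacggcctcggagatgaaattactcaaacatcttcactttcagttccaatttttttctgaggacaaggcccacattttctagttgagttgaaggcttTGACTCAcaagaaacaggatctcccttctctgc
The RUNX letters occurred in 7 of the 8 windows, all except that of *Gzmk*, and in 16.8% of all 32851 promoters of this length. The T-box letters occurred in *Gzmb*, *Gzmk* and *Nkg7*, against 14.5% of all promoters, and the AP-1 letters in *Gzmb* and *Klrk1*, against 7.81%. *Gzmb* was the only one of the 8 with all 3 motifs. Its TGAGTCA began at position -58 from the start site, between TGTGGT at positions -93 and -34. No window among the 8 held the exact letters TATAAA, which were in 13.6% of all promoters. Looser forms, such as the TATATAA in the printed window of *Gzma*, were not searched, so a lack of TATA elements is not shown. Such matches describe letters and not bound sites.

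In the genome (mm10, GENCODE gene bounds) 6 of the 10 genes lay next to another member. *Gzmc* (chromosome 14, 56231441 to 56234656) and *Gzmb* (chromosome 14, 56258838 to 56262260) lay 24.2 kb apart on the minus strand. *Gzma* (chromosome 13, 113093825 to 113100981) and *Gzmk* (chromosome 13, 113171608 to 113225908) lay 70.6 kb apart, also both on the minus strand. *Klrd1* (chromosome 6, 129591782 to 129598775, plus strand) and *Klrk1* (chromosome 6, 129610323 to 129623864, minus strand) lay 11.5 kb apart. No protein-coding gene was annotated between the genes of any of these pairs. The others were *Prf1* (chromosome 10, 61297833 to 61304680), *Nkg7* (chromosome 7, 43437073 to 43438249), *Ctsw* (chromosome 19, 5465043 to 5468507) and *Serpinb9* (chromosome 13, 33003250 to 33017957). *Gzmk* overlaps *Esm1* on the other strand by 8440 bases, and *Ctsw* overlaps *Fibp* by 9 bases. These are overlaps of gene bounds, introns included, and the use of strand in counting is not given in the sources used here. Whether reads of the overlapping genes were mixed in the counts was not tested. Of the 50-base words in its transcripts, *Gzmc* shared 4.14% with *Gzmd*, *Gzme* and *Gzmg*, *Serpinb9* shared 0.378% with *Serpinb9b*, and the other 8 genes shared none with another gene.

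Depth ranged from 46989997 to 74548723 expected counts per library, an expected count being the number of fragments that RSEM assigns to a gene. *Tox* marked the groups as labelled, at 11.7 and 5.73 CPM in the EV RV libraries against 121 and 99.9 CPM in the Tox RV libraries, where CPM is the count scaled to library size (counts per 1000000, TMM). Where both libraries of a group are given, replicate 1 comes first. EV RV replicate 1 stood apart from the other libraries, at -39.3 on the first principal component against 5.46 to 17.9. Ribosomal precursor RNA (*Rn45s*) made up 24.7% and 11.97% of the EV RV counts against 10.3% and 7.14% of the Tox RV counts. With *Rn45s* left out before scaling, the 9 members tested kept the sign of their log2 fold change, with *Nkg7* at 0.86 and *Gzmb* at -0.05, and 0 genes were called. Markers of CD4 T cells were present in all libraries, with a summed level of 1695 to 2270 TPM (transcripts per 1000000 transcripts, a level corrected for length) in EV RV and 1920 to 2252 TPM in Tox RV over 7 genes, *Cd3g* being the highest. The CD8 T cell genes *Cd8a* and *Cd8b1* summed to 3.32 to 4.98 TPM in EV RV and 3.95 to 4.72 TPM in Tox RV. With 4 bulk libraries, fewer cells that express a gene and less RNA per cell cannot be told apart.

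*Gzmb* was the dominant transcript of the set. Its level was 433 TPM in EV RV replicate 1, 1526 TPM in EV RV replicate 2, 1152 TPM in Tox RV replicate 1 and 675 TPM in Tox RV replicate 2. These levels ranked between 108 and 221 among the 24369 genes, and *Gzmb* made up 51.9% to 78.6% of the summed TPM of the 10 genes. *Nkg7* followed at 161 to 326 TPM and *Ctsw* at 66.1 to 155 TPM, and the ranges of these neighbours did not overlap. Below them came *Serpinb9* at 36.3 to 61.7 TPM, *Gzma* at 16.7 to 62.2 TPM, *Gzmc* at 17.5 to 59.4 TPM, *Klrd1* at 4.21 to 33.2 TPM, *Klrk1* at 2.44 to 19.9 TPM and *Prf1* at 1.79 to 5.31 TPM. From *Serpinb9* to *Prf1*, each gene overlapped in range with the next in the order, so neighbours there do not differ beyond the spread between libraries, although *Klrk1* was above *Prf1* in all 4 libraries. Genes further apart in the order did differ, since the ranges of *Serpinb9*, *Gzma* and *Gzmc* all lay above that of *Prf1*. *Gzmk* was at or near the floor of 3 counts per library, with 2 and 6 counts in EV RV against 0 and 4 counts in Tox RV. It was not tested and no fold change is given for it. The granule transcripts were therefore uneven, with *Gzmb* 242 to 365 times the level of *Prf1* per transcript.

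**Figure D1:**
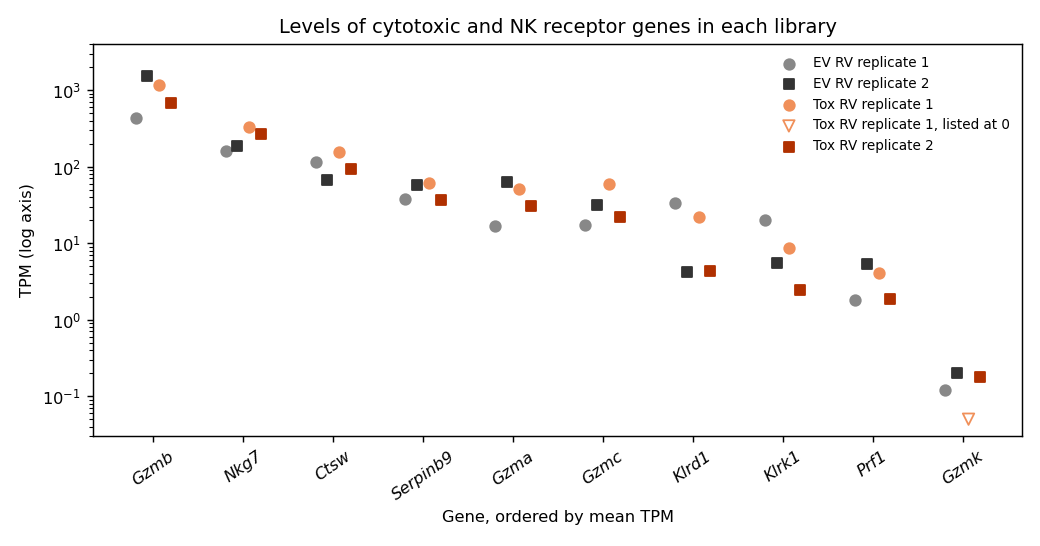
TPM on a log axis of the 10 genes in each of the 4 libraries, ordered by mean TPM. *Gzmb* is highest in every library at 433 to 1526 TPM, *Nkg7* is the only gene with Tox RV libraries that do not overlap the EV RV libraries, and *Klrd1* and *Klrk1* are higher in the libraries numbered 1; the open triangle marks *Gzmk* listed at 0 and stands at an arbitrary height.

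Whether ectopic *Tox* changed these genes was asked by comparing Tox RV with EV RV in edgeR's quasi-likelihood test over the 14143 genes with enough counts, which included 9 of the 10 genes. A gene was called at a fold change above 2 and a Benjamini-Hochberg adjusted p-value below 0.05 over all genes tested. None of the 9 was called (0 of 14143 genes were called, 0% of those tested). *Tox* itself, at a 12.8-fold difference, was not called by this test either (adjusted p = 0.49, edgeR), whereas DESeq2 called it (adjusted p = 3.8e-24). The lack of calls is therefore not evidence that the members were unchanged. At an unadjusted p-value below 0.05 there was 1 of the 9, *Nkg7*, against 3.62% of all genes tested. DESeq2 with default parameters called none of the 10, against 0.121% of the genes it gave an adjusted p-value. Of the 9 log2 fold changes, 5 were above 0 and 4 below, with a median of 0.09 against 0.0036 over all genes tested. Single libraries set this split, which was 2 above and 7 below (median -0.32) without Tox RV replicate 1, 8 and 1 (0.41) without Tox RV replicate 2, 7 and 2 (0.86) without EV RV replicate 2, and 5 and 4 (0.07) without EV RV replicate 1. Only *Nkg7* had groups that did not overlap, with Tox RV above, an arrangement found in 18.6% of all genes tested, and none had Tox RV entirely below, found in 17.4%. None exceeded a 2-fold difference upward, against 0.841% of all genes tested, and 1, *Klrk1*, exceeded it downward, against 2.54%.

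Among the granzymes, the libraries of a group differed more than the groups did. *Gzmb* was at 329 and 1219 CPM in EV RV and at 951 and 557 CPM in Tox RV. Both Tox RV values thus lay between the EV RV values, and the log2 fold change was -0.04 ± 0.60 (SE, n = 2 per group), with a 95% interval from -1.53 to 1.45 and an adjusted p = 0.993 in edgeR's test. Its sign turned under several settings, to 0.03 with scaling by library totals and to 0.12 on log2(TPM + 1). *Gzma*, at 7.28 and 28.5 CPM in EV RV and 23.8 and 14.4 CPM in Tox RV, had the same order of libraries and a log2 fold change of 0.09 ± 0.62 (SE; adjusted p = 0.983, edgeR). *Gzmc* was at 8.20 and 15.4 CPM in EV RV and at 30.3 and 11.2 CPM in Tox RV. Only Tox RV replicate 1 exceeded both controls, and the log2 fold change of *Gzmc* was 0.81 ± 0.52 (SE), with an interval from -0.48 to 2.11 and an adjusted p = 0.897 in edgeR's test. Without Tox RV replicate 1 it was -0.09. These intervals reach past a 2-fold difference in at least 1 direction, so a change of that size was not detectable with these libraries and is not shown to be absent.

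*Prf1* and *Serpinb9* had no separation of the groups either. *Prf1* was at 2.04 and 6.37 CPM in EV RV and at 5.04 and 2.29 CPM in Tox RV, with a log2 fold change of -0.21 ± 0.62 (SE; adjusted p = 0.952, edgeR). Here too the EV RV libraries were the lowest and the highest of the 4. *Serpinb9* was at 72.5 and 116 CPM in EV RV and at 130 and 76.6 CPM in Tox RV, with a log2 fold change of 0.13 ± 0.34 (SE; adjusted p = 0.948, edgeR). Its interval, from -0.71 to 0.97, lies within a 2-fold difference in either direction. The signs of these genes turned with the library left out. Without EV RV replicate 1, *Gzma* had a log2 fold change of -0.58 and *Serpinb9* one of -0.18, and without Tox RV replicate 1 they were -0.32 and -0.31. Without EV RV replicate 2 the value of *Gzmb* was 1.204 and that of *Prf1* 0.86, and without Tox RV replicate 2 they were 0.30 and 0.25.

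*Nkg7* was higher in both Tox RV libraries. It was at 63.8 and 77.3 CPM in EV RV and at 141 and 116 CPM in Tox RV. The means were 70.5 ± 9.57 CPM in EV RV and 129 ± 17.4 CPM in Tox RV (SD, n = 2), so the gap between the groups exceeded the spread within either. This was a 1.82-fold difference, or a log2 fold change of 0.87 ± 0.20 (SE) with an interval from 0.38 to 1.35. In edgeR's test the unadjusted p was 0.00491 and the adjusted p = 0.897, and in DESeq2 the adjusted p = 0.242. It stayed positive in all 13 alternative fits, between 0.72 and 1.02, the highest value being that without EV RV replicate 2. *Ctsw* also stayed positive in all 13, but its groups overlapped. It was at 74.0 and 45.1 CPM in EV RV and at 109 and 65.9 CPM in Tox RV, and its log2 fold change was 0.56 ± 0.34 (SE; adjusted p = 0.897, edgeR).

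The receptor genes had the widest intervals. *Klrd1* was at 14.2 and 1.90 CPM in EV RV and at 10.2 and 1.99 CPM in Tox RV. The replicates numbered 1 were high and those numbered 2 low in both groups, and the log2 fold change was -0.39 ± 1.05 (SE), with an interval from -2.99 to 2.21 and an adjusted p = 0.949 in edgeR's test. Without EV RV replicate 1 it was 1.68, and without Tox RV replicate 2 it was 0.35. *Klrk1* was at 36.6 and 10.5 CPM in EV RV and at 17.2 and 4.86 CPM in Tox RV. Each Tox RV library was below the EV RV library of the same number, yet the groups overlapped, and the log2 fold change was -1.09 ± 0.76 (SE), with an interval from -2.96 to 0.78 and an adjusted p = 0.897 in edgeR's test. Without Tox RV replicate 1 it was -2.28 and called (adjusted p = 0.00217, edgeR), and without EV RV replicate 1 it was 0.07.

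**Figure D2:**
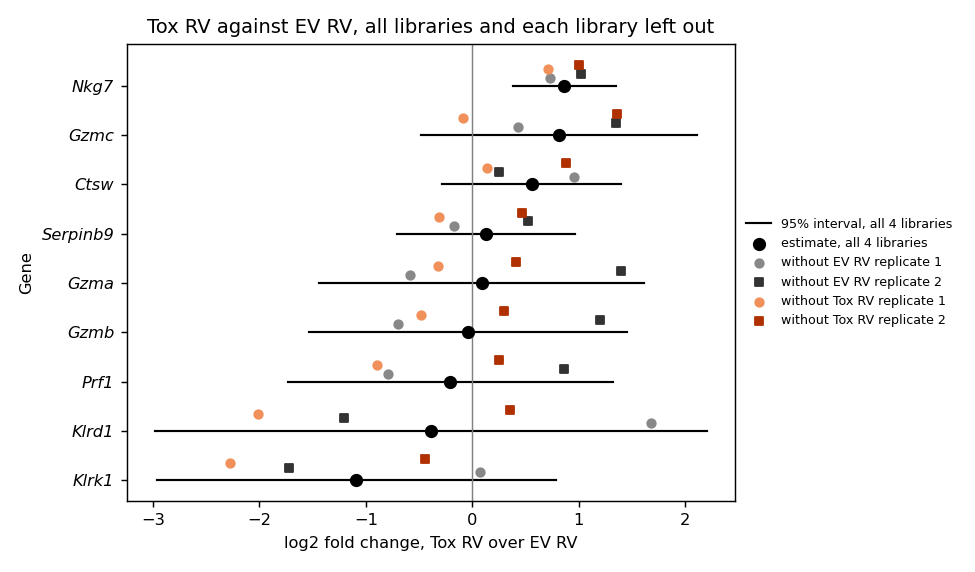
Log2 fold change of Tox RV over EV RV for the 9 genes tested, with the edgeR estimate (black point) and its 95% interval (line) from all 4 libraries and the estimates with each library left out. *Nkg7* and *Ctsw* stay above 0 in every fit shown, while *Klrd1* moves from -2.02 to 1.68 and *Klrk1* from -2.28 to 0.07.

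The same genes differed widely between libraries of the same group. Between the EV RV libraries, *Gzma* differed 3.92-fold, *Gzmb* 3.71-fold and *Prf1* 3.12-fold, against a median of 1.30-fold over all genes tested. In each case EV RV replicate 1 was the lower. *Klrd1* differed 7.44-fold and *Klrk1* 3.48-fold between the same libraries, with EV RV replicate 1 the higher. Between the Tox RV libraries, where the median over all genes was 1.12-fold, *Gzmb* differed 1.71-fold, *Gzmc* 2.71-fold, *Klrk1* 3.54-fold and *Klrd1* 5.11-fold. *Nkg7*, at 1.21-fold in each group, was the steadiest of the 9.

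*Gzma* and *Gzmb* moved together. The ratio of *Gzmb* to *Gzma* in TPM stood at 25.9 and 24.5 in EV RV against 22.9 and 22.1 in Tox RV, although *Gzmb* itself ranged from 433 to 1526 TPM. Other ratios were less even. That of *Gzmb* to *Gzmc*, its neighbour on chromosome 14, ran from 19.4 in Tox RV replicate 1 to 49.0 in EV RV replicate 2. That of *Gzmb* to its inhibitor *Serpinb9* was 11.6 in EV RV replicate 1, 26.8 in EV RV replicate 2, 18.7 in Tox RV replicate 1 and 18.6 in Tox RV replicate 2. That of *Klrd1* to *Klrk1* ran from 0.771 to 2.53. These ratios are descriptions over 4 libraries.

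The library pattern of *Klrd1* and *Klrk1* extended to other killer cell lectin-like receptor genes, which were looked at after the values of the members were seen. Of the 13 other Klr genes with at least 10 counts in all, 11 were higher in the replicate numbered 1 than in that numbered 2 in both groups (84.6%, against 32.3% of all genes tested and 33.3% of the 9 members tested). Most of these genes had few counts, many of them too few to be tested, while the share over all genes covers tested genes only. The order was not particular to Klr genes, since *Ctsw* among the members, and *Cd160* and *Cd96*, had it too. *Klrc1*, which encodes the NKG2A partner of CD94, had 125 and 29 counts in EV RV against 76 and 10 counts in Tox RV, and *Klrb1c*, which encodes the NK cell antigen NK1.1, had 46, 14, 44 and 10 counts. The 13 genes summed to 10.998 and 5.85 CPM in EV RV and to 7.70 and 4.45 CPM in Tox RV. *Klrg2* and *Klrc3* were the exceptions, *Klrc3* having 1 count in each Tox RV library.

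Markers of NK, myeloid and mast cells were examined in the same libraries. Of 8 markers of NK and innate lymphoid cells, 5 exceeded 3 counts in at least 1 library, and the list summed to 40.8 and 50.01 TPM in EV RV and to 33.3 and 31.5 TPM in Tox RV. Nearly all of this was *Eomes*, a T-box factor that activated T cells also express, at 30.7 to 48.3 TPM. *Eomes* alone was at 37.3 and 48.3 TPM in EV RV, so the sum takes its order there and does not describe the scarcer markers. *Ncr1*, which encodes the NK cell receptor NKp46, was at 0 counts in all 4 libraries, and *Klra4* and *Klra8* were at or below 3 counts in each. *Tyrobp*, an adaptor of NK and myeloid receptors, had 0, 2, 11 and 1 counts. *Klrb1c* is in this list and moved with *Klrd1* and *Klrk1*. So did *Klre1* of the same list, named after its values were seen, at 11, 4, 10 and 0 counts. *Fcer1g*, also in the list, was at 2.23 and 1.42 TPM in EV RV and at 0.91 and 0.67 TPM in Tox RV, again higher in the replicates numbered 1. *Tyrobp* and *Eomes* did not have this order in EV RV. The part of these markers in the values of *Klrd1* and *Klrk1* was not tested. Of 7 myeloid markers, 2 of them shared with the NK list, 5 exceeded the floor, *Lyz2* and *Cd14* did not, *Fcer1g* was the highest, and the list summed to 2.40 to 2.66 TPM in EV RV and 1.38 to 2.14 TPM in Tox RV. Of 6 mast cell and basophil markers, 3 exceeded the floor, *Mcpt4*, *Mcpt8* and *Fcer1a* did not, and the list, with *Kit* the highest, summed to 0.73 to 2.65 TPM in EV RV and 2.01 to 3.78 TPM in Tox RV.

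**Figure D3:**
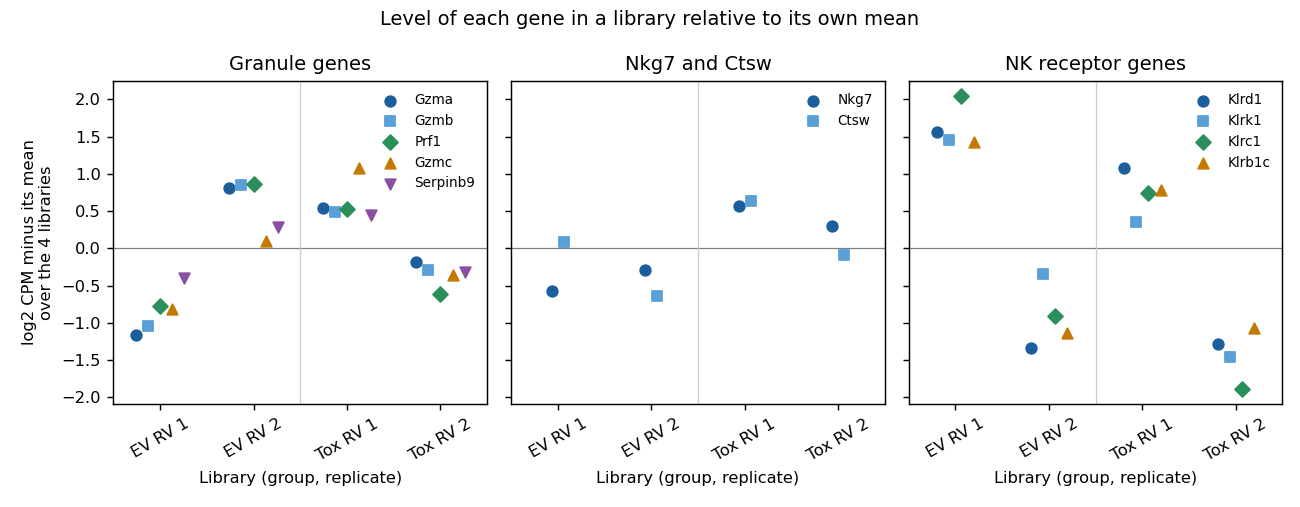
Log2 CPM of each gene in a library minus its mean over the 4 libraries, for granule genes (left), *Nkg7* and *Ctsw* (middle) and NK receptor genes (right); each point is 1 library. The left panel has EV RV replicate 1 low, *Gzmb* there at -1.05, and the right panel has the libraries numbered 1 high in both groups, *Klrd1* at 1.56 and 1.07.

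Around these genes, the wider programme was described with 4 lists. Over all 14143 genes tested, 7135 had a log2 fold change above 0 and 7008 below, and 3.62% had an unadjusted p-value below 0.05 (edgeR). Genes below that p-value numbered 1 of 15, 1 of 15, 2 of 10 and 1 of 13 in the lists, in the order described. Of 21 other granule effectors and inhibitors, 15 were tested, 10 with a log2 fold change above 0 and 5 below, with a median of 0.04. None was called. Despite its name, the list also holds surface proteins such as those of *Crtam* and *Fasl*. The split was 7 above and 8 below (median -0.13) without Tox RV replicate 1, 8 and 7 (0.0033) without EV RV replicate 1, 11 and 3 (0.49) without EV RV replicate 2, and 11 and 4 (0.21) without Tox RV replicate 2. Serglycin (*Srgn*), the proteoglycan that packs granzymes, was at 758 and 793 TPM in EV RV and at 860 and 832 TPM in Tox RV, with a log2 fold change of 0.21 ± 0.16 (SE; adjusted p = 0.897, edgeR). Cystatin F (*Cst7*), an inhibitor of granule cathepsins, was at 155 and 197 TPM in EV RV and at 226 and 198 TPM in Tox RV, its groups barely apart, and *Lamp1*, a lysosome membrane protein exposed on degranulation, overlapped between groups at 103 to 130 TPM. The single gene of the list at an unadjusted p-value below 0.05, named after its values were seen, was *Crtam*. It encodes a surface receptor associated with cytotoxic CD4 T cells and not a granule protein. It was at 12.3 and 19.3 TPM in EV RV and at 34.5 and 24.9 TPM in Tox RV, with a log2 fold change of 0.98 ± 0.30 (SE; adjusted p = 0.897, edgeR). The granzymes of the *Gzmb* cluster other than *Gzmc* had few counts, *Gzmd*, also named after its values were seen, having 4, 32, 14 and 9 counts.

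The 15 genes of the granule release machinery were all tested, 12 above 0 and 3 below, with a median of 0.17 and none called, and with 10 to 12 above 0 when a library was left out. The most abundant were *Vamp8* at 76.3 to 93.5 TPM and *Stx11* at 63.6 to 82.9 TPM, SNARE proteins of vesicle fusion, and the kinesin gene *Kif5b* at 56.2 to 74.1 TPM. Their groups overlapped. *Rab27a*, a GTPase that docks granules at the membrane, was the 1 gene at an unadjusted p-value below 0.05 and is named after its values were seen. It was at 23.1 and 28.6 TPM in EV RV and at 39.4 and 35.03 TPM in Tox RV, with a log2 fold change of 0.60 ± 0.20 (SE; adjusted p = 0.897, edgeR).

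Of 32 other NK receptor and adaptor genes chosen, 31 were listed and 10 tested, 4 above 0 and 6 below, with a median of -0.39 and none called. Without EV RV replicate 1 the split was 9 above and 2 below, with a median of 0.34, and without Tox RV replicate 2 it was 8 and 6, with a median of 0.13. It was 4 and 9 (-0.61) without EV RV replicate 2 and 2 and 10 (-0.88) without Tox RV replicate 1. *Cd160*, a receptor of the immunoglobulin family on activated T and NK cells, was at 15.3 and 9.46 TPM in EV RV and at 29.5 and 20.6 TPM in Tox RV. Both Tox RV values exceeded both EV RV values, a log2 fold change of 1.11 ± 0.29 (SE) and an adjusted p = 0.897 in edgeR's test, 0.189 in DESeq2. *Cd96*, a receptor for nectin-like ligands, was at 75.5 and 57.8 TPM in EV RV and at 89.3 and 79.6 TPM in Tox RV, and *Hcst*, the adaptor that signals for NKG2D, overlapped between groups at 45.9 to 50.8 TPM. *Hcst* thus had nearly the same level in all libraries while *Klrk1* ranged from 2.44 to 19.9 TPM. *Fcgr3*, an Fc receptor of NK and myeloid cells, was lower in both Tox RV libraries, but from 12, 28, 9 and 4 counts. Its log2 fold change was -1.55 ± 0.62 (SE; adjusted p = 0.897, edgeR).

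Of 14 transcription factors chosen around cytotoxic T cells, 13 were tested, 7 above 0 and 6 below, with a median of 0.10 and none called. Not all of them belong to the cytotoxic programme, since *Tcf7* and the CD4 T cell marker *Zbtb7b* are among them. The split and the median therefore give no direction of that programme. The median was -0.12 without EV RV replicate 2 and -0.05 without Tox RV replicate 1, with 6 above and 7 below in each. *Id2*, an inhibitor of E proteins, was at 118 and 209 TPM in EV RV and at 329 and 231 TPM in Tox RV, with a log2 fold change of 0.85 ± 0.34 (SE; adjusted p = 0.897, edgeR). *Bhlhe40* was at 381 and 243 TPM in EV RV and at 322 and 214 TPM in Tox RV, with overlapping groups. *Tcf7*, a factor of memory-like and less differentiated T cells, was at 194 and 51.6 TPM in EV RV and at 109 and 143 TPM in Tox RV. EV RV replicate 1 was thus the highest for *Tcf7* and the lowest for *Gzma*, *Gzmb* and *Prf1*, and EV RV replicate 2 the reverse. The T-box genes are named after their values were seen. *Tbx21* was at 68.2 and 95.03 TPM in EV RV and at 74.2 and 70.9 TPM in Tox RV, the same order of libraries as *Gzmb* over a narrower range. *Eomes* was at 37.3 and 48.3 TPM in EV RV and at 31.0 and 30.7 TPM in Tox RV, the Tox RV values being the lower and the log2 fold change -0.39 ± 0.20 (SE; adjusted p = 0.897, edgeR). *Runx3*, also named after its values were seen, was at 58.3 TPM in EV RV replicate 1 and at 21.2 to 26.4 TPM in the other libraries.

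**Figure D4:**
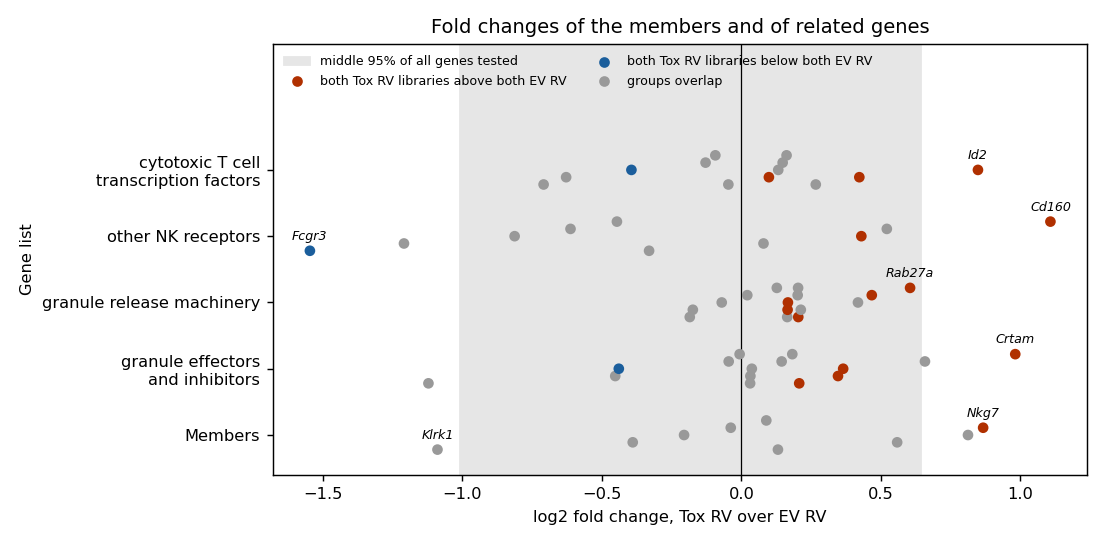
Log2 fold changes of Tox RV over EV RV for the 9 members tested and for the tested genes of the 4 lists, 1 point per gene, coloured by whether the 2 libraries of each group overlap; the grey band spans the middle 95% of all genes tested, from -1.01 to 0.64. Labels mark genes at an unadjusted p-value below 0.05, none of which was called, and *Klrk1*; *Cd160* at 1.11 and *Crtam* at 0.98 lie furthest to the right.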

How the data were processed

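RNA-seq libraries of sorted GFP+ CD4 T cells, 2 EV RV and 2 Tox RV, were grouped by their labels. Per the methods, the authors aligned reads with bowtie to mm10 and quantified genes with RSEM; the submitters' processing notes also name FastQC, Bowtie2 and DESeq2. The deposited expected counts are RSEM's estimated counts per gene, not normalized, and the deposited TPM values are scaled by the authors for transcript length and library. RSEM divides reads between similar genes, so counts of close copies are uncertain. A deposited table of the whole series and the FPKM column were not used.

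Expected counts were rounded and tested in R 4.3.3 with edgeR 4.0.16 (filterByExpr, minimum count 10, TMM scaling, glmQLFit and glmQLFTest, no block). The fit was also run on simulated data drawn with the dispersions fitted here, which checks the code and not the calls. P-values were Benjamini-Hochberg adjusted over all 14143 genes tested. Levels are TPM where genes are compared and for the genes of the lists and markers. Levels of the members between libraries are CPM. TPM is not TMM scaled, so it can differ in direction from the log2 fold change. *Hcst* was at 0.079 in edgeR and at -0.0049 on log2(TPM + 1). Values are given with the SD of the libraries or the SE of the log2 fold change. The floor was set at 3 counts per library, which covers counting error only. An exact permutation test of 2 against 2 libraries cannot go below p = 0.333 and was not used.

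Alternatives were DESeq2 1.42.0, other scalings and count filters, *Rn45s* left out, the replicate number as a block, limma 3.58.1 on log2(TPM + 1) and log2(TPM + 0.1), and each library left out. Coordinates are from GENCODE and promoters from RefSeq. The members and all gene lists were chosen with earlier results of these data known. Named genes were the members, *Tox*, *Rn45s*, the 3 most abundant genes of each list, list genes past a 2-fold difference whose groups did not overlap, and, from the marker lists, the most abundant gene and the defining genes near 0; others are marked in the text. A further marker list is not reported here.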

Additional observations from a re-analysis of the deposited data

How the results depend on the processing

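The direction of *Nkg7* and *Ctsw* held in all 13 alternatives, and 0 members were called in 11 of them. The count of all genes called, 0 with all 4 libraries, was 22 with DESeq2, 22 without a filter on low counts (11 higher and 11 lower in each) and 1 to 322 with a library left out, the largest being 322 without EV RV replicate 2 (70 higher, 252 lower). The members called then ranged from 0 to 1: *Nkg7* without EV RV replicate 2 and *Klrk1* without Tox RV replicate 1. In such a fit the lone library of a group is assumed to vary like the other group. Scaling by library totals moved the median log2 fold change of all genes to 0.12, and the one of *Gzmb* to 0.026 and of *Bhlhe40* to 0.0073. On limma's log2(TPM + 1) and log2(TPM + 0.1) the value of *Gzmb* was 0.12 in both, and that of *Hcst* was -0.0049 and -0.0050. The cause was not tested. With a library left out, log2 fold changes that turned sign ran from -0.58 to 1.40 for *Gzma*, -0.70 to 1.204 for *Gzmb*, -0.087 to 1.36 for *Gzmc*, -0.89 to 0.86 for *Prf1*, -0.31 to 0.52 for *Serpinb9*, -2.02 to 1.68 for *Klrd1*, -2.28 to 0.068 for *Klrk1*, -0.051 to 0.33 for *Vamp8*, -0.010 to 0.47 for *Kif5b*, -0.0035 to 0.15 for *Hcst*, -0.46 to 0.18 for *Bhlhe40* and -0.49 to 1.33 for *Tcf7*. *Id2* was called without EV RV replicate 2 (1.37, adjusted p = 0.0477, edgeR).

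With the replicate number as a block, 16 genes were called (9 higher, 7 lower). No member was among them, *Cd160* was (1.11, adjusted p = 0.0461, edgeR), *Klrk1* had -1.10 with an adjusted p = 0.0645 and *Gzmb* had 0.20. Deviations from the group means correlated between same-numbered libraries at r = 0.39 across 14143 genes, which are not independent replicates, but with 2 numbers and no label tying a number to a mouse, the libraries share only a number. With 2 libraries per group and these spreads, a 2-fold difference in at least 1 direction was within the interval of each granzyme and receptor tested.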
